A study of Mus musculus with 23 samples.

Results

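Aadac and Sucnr1 are neighbouring genes on mouse chromosome 3, which also holds P2ry13, the gene deleted in this study, and both read lower in P2ry13 knockout (KO) livers of either sex. They were chosen by their KO minus WT differences in these same arrays, in both sexes, so their KO differences are given below as a description without a test. The members are the probe sets that the array annotation assigns to exactly 1 symbol, Aadac or Sucnr1; each gene had 1, so there were 2 of the 38385 probe sets on the array and of the 24478 with a single symbol. Of all 38385 probe sets, 5 were lower in both sexes at an adjusted p under 0.05 in each (limma), 0.013%: those of Aadac, Sucnr1, P2ry13 and Mme, and 1 that is unnamed here. Sucnr1 was the last inside that limit, with a larger adjusted p over the sexes of 0.0228. The first outside it were Mccc1, at -0.50 in females and -0.49 in males (log2, KO minus WT), and Hsd3b3, at -1.40 and -1.38, both with a larger adjusted p of 0.0776. The 4 named genes inside and these 2 outside all lie on chromosome 3. With 1 array left out, Sucnr1 stayed inside the limit in females in 5 of 12 cases, without KO replicate 2 or 5 or WT replicate 3, 4 or 6 (limma, adjusted p 0.00371 to 0.0998 over the 12), and in males in all 11, while Aadac stayed inside in every case. Sucnr1 in females was also outside the limit with an intensity trend and robust variance (limma, adjusted p = 0.137) and with only the female groups fitted (0.0719). All these refits use arrays that chose the genes, so staying inside the limit is no support for the KO differences.

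The study measured liver RNA of 6 female KO, 6 female wild-type (WT), 6 male KO and 5 male WT mice on 1-colour arrays, 1 array per sample. The labels name the genotype GPR86 KO, GPR86 being another name of P2ry13, or WT, and do not say which part of the gene was removed, nor the strain, age or diet. The replicates of a group are numbered, and nothing beyond the counts of mice in the design text ties an array to an animal. The median linear intensity of an array was 19.5 to 21.1, the correlation of any pair of arrays was between 0.983 and 0.995, and at most 0.594% of values were identical in a pair. The number of arrays in each group limits the precision of every value. Values below are log2 intensity unless said otherwise, a level of 1 probe set is not compared with that of another, and an adjusted p comes from limma with Benjamini-Hochberg adjustment over all probe sets.

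Aadac encodes arylacetamide deacetylase, a serine esterase on the lumenal side of the endoplasmic reticulum membrane of hepatocytes that cleaves amide and ester bonds of drugs and has been linked to the release of stored triglyceride. Sucnr1 encodes the succinate receptor, also called GPR91, a G protein-coupled receptor through which extracellular succinate, an intermediate of the citric acid cycle, acts as a signal; in liver it is best known from stellate cells, and it is also found on immune cells. P2ry13 encodes a receptor for ADP that is coupled to inhibitory G proteins and is known in liver for its part in the uptake of HDL particles by hepatocytes.

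The start regions of both genes are shown because the genes lie side by side, read lower together in KO livers and varied together among arrays. Each runs from 250 bases before to 50 bases after the transcription start annotated by RefSeq in GRCm38.p6, both on the plus strand: Aadac at chr3:60031538-60031837 and Sucnr1 at chr3:60081619-60081918. Capitals mark a match to a motif described after them.
Aadac: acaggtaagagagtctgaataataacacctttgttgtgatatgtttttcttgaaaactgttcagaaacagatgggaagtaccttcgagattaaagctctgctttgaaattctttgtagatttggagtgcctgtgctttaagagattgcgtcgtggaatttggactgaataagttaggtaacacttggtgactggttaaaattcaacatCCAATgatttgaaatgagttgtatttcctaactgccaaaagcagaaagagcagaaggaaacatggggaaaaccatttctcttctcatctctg
Sucnr1: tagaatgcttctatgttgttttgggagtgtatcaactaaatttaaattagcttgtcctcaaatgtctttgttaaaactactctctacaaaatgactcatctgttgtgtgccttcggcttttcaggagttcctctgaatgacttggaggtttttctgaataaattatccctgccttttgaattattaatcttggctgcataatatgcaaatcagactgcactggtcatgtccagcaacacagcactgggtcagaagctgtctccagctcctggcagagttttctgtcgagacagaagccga
Both strands were searched for 8 short motifs, given here with the share of 32851 start regions of this length that hold each. The TATA box, TATAAA, is in 13.6% of them and the CCAAT box in 37.4%. Core letters of the sites of liver factors were GTTAAT for HNF1, in 7.1%, AGGTCA for nuclear receptors, in 16.3%, TTGCGCAA for C/EBP, in 0.183%, and ATTGAT for HNF6, in 7.54%. The palindrome of STAT factors, TTCNNNGAA, is in 8.3% and the E-box of clock factors, CACGTG, in 7.15%. The CCAAT box matched in the Aadac region, its first base 42 bases before the start, and is in capitals. The other 7 did not match there, and none of the 8 matched in the Sucnr1 region, so no overlap arose. Both regions were poor in G and C, at 37.3% for Aadac and 40.7% for Sucnr1, where the median of all start regions was 52.7% and 6.2% and 11.4% of them were lower.

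The deleted gene was read first. P2ry13 averaged 5.15 ± 0.06 in female KO and 6.27 ± 0.17 in female WT livers (SD, n = 6 each), and 5.19 ± 0.11 in male KO (n = 6) and 5.99 ± 0.22 in male WT livers (n = 5). In both sexes the highest KO reading was under the lowest WT reading, by 0.81 in females and 0.46 in males. The labels do not place this probe set inside or outside the removed sequence, so it is an incomplete check of the genotype, and the value left in KO livers does not show whether transcript remained.

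In female livers, Aadac read 11.16 at the lowest, 11.25 at the median and 11.45 at the highest among the 6 KO arrays, against 11.75, 11.91 and 11.99 among the 6 WT arrays. The groups did not overlap: the highest KO array lay 0.30 below the lowest WT array. The KO mean was 11.29 ± 0.12 and the WT mean 11.90 ± 0.08 (SD, n = 6 each), a log2 difference of -0.62 (SE 0.07), which puts the deacetylase message at 65.2% of WT. In male livers the 6 KO arrays read 11.32 at the lowest, 11.44 at the median and 11.56 at the highest, against 12.17, 12.21, 12.26, 12.04 and 12.04 in WT replicates 2 to 6. Here the highest KO array lay 0.48 below the lowest WT array. The means were 11.44 ± 0.08 in KO (SD, n = 6) and 12.14 ± 0.10 in WT (SD, n = 5), a difference of -0.70 (SE 0.07), or 61.4% of WT.

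Sucnr1 differed more in size and also spread more among animals. In female livers the succinate receptor read 7.24 at the lowest, 7.70 at the median and 8.44 at the highest in KO, against 8.36, 8.88 and 9.20 in WT. Of the 6 KO arrays, 5 lay below every WT array, and KO replicate 5, at 8.44, lay above WT replicate 6, at 8.36. The means were 7.81 ± 0.47 in KO and 8.86 ± 0.37 in WT (SD, n = 6 each), a difference of -1.05 (SE 0.19), or 48.3% of WT. In male livers the KO arrays read 8.14 at the lowest, 8.57 at the median and 9.07 at the highest, against 10.14, 10.18, 10.20, 9.71 and 9.54 in WT replicates 2 to 6. These groups did not overlap, with the highest KO array 0.47 below the lowest WT array. The means were 8.65 ± 0.36 in KO (SD, n = 6) and 9.95 ± 0.31 in WT (SD, n = 5), a difference of -1.30 (SE 0.20), or 40.5% of WT.

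As background to these descriptions, 12 of 38385 probe sets were called lower in female KO (0.0313%) and 6 in male KO (0.0156%), and the groups did not overlap, with KO lower, for 0.125% in females and 0.305% in males. Nothing is read from the members' place in these counts, since the same contrasts chose them. The KO difference of Aadac was 0.09 higher in females than in males (95% interval -0.11 to 0.28) and that of Sucnr1 0.26 higher (95% interval -0.32 to 0.83). In bulk liver, fewer cells of a type and less RNA per cell cannot be told apart.

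**Figure D1:**
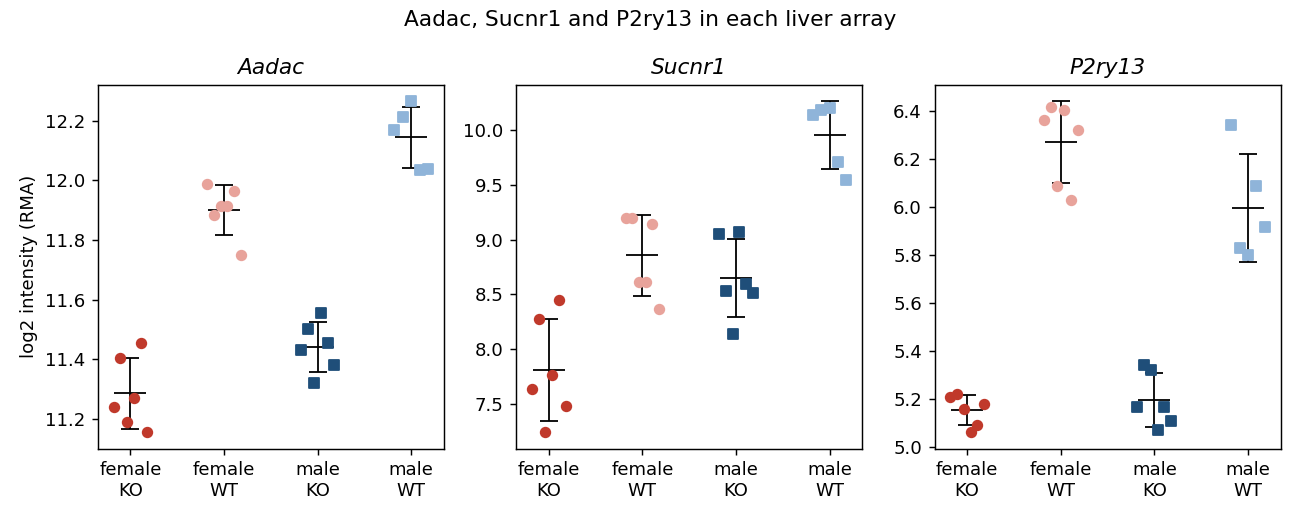
Log2 intensity (RMA) of Aadac, Sucnr1 and P2ry13 in each of the 23 arrays, by sex and genotype; points are arrays, and the bars are the group mean and SD. The vertical axes differ between panels and do not start at 0. KO arrays lie below WT arrays of the same sex in each panel except for a female pair of Sucnr1. For Aadac and Sucnr1 the male mean lies above the female mean of the same genotype, and the KO arrays of the sexes overlap.

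Genes on either side were read next, to place the pair within the locus. In the RefSeq gene table of assembly GRCm38.p6, Aadac and Sucnr1 are adjacent entries, with 15 entries, pseudogenes included, between P2ry13 and Aadac. Among the 30 other genes nearest to P2ry13 in gene order that had a probe set with a single symbol, 15 on each side, 1 fell in KO livers of each sex, the membrane peptidase gene Mme, and 29 did not pass (limma). At an unadjusted p under 0.05 the count was also 1 of the 30 in females and 1 in males, that of Mme, where 5.87% and 6.14% of all probe sets were under it. Their median difference was -0.01 in females and -0.02 in males, and that of all probe sets -0.01 and -0.00. Mme read 4.12 in female KO and 8.05 in female WT livers, and 3.21 in male KO and 7.04 in male WT livers (adjusted p = 1.69e-18 in females and 1.15e-17 in males, limma).

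The genes that lie between P2ry13 and Aadac and have a probe set showed small differences. P2ry12, another ADP receptor, known from platelets and microglia, differed by 0.11 (SE 0.11) in females and -0.09 (SE 0.12) in males. Igsf10, an immunoglobulin superfamily gene, differed by 0.05 (SE 0.11) and -0.12 (SE 0.12). The 4 deacetylase-like paralogs of Aadac in this stretch, Aadacl2fm2, Aadacl2fm3, Aadacl2fm1 and Aadacl2, had differences of -0.12, -0.06, -0.03 and -0.05 in females and of -0.05, 0.06, 0.06 and 0.01 in males. None of these 6 genes passed in either sex (limma, adjusted p between 0.896 and 0.987 in females and between 0.921 and 0.993 in males). The group means of the 3 Aadacl2fm genes were 2.52 to 3.06, those of P2ry12 3.87 to 4.26, of Igsf10 4.18 to 4.53 and of Aadacl2 4.82 to 4.92. The median of the mean levels of all probe sets was 4.35. A fall from levels this low might not be seen, so the small differences do not show that these genes were unchanged.

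Beyond Sucnr1, the next gene with a probe set was Mbnl1, an RNA splicing regulator. It read 9.65 in female KO and 9.57 in female WT, and 9.72 in male KO and 9.67 in male WT, differences of 0.09 (SE 0.10) and 0.04 (SE 0.11; limma, adjusted p = 0.942 and 0.977). P2ry1, a further ADP receptor, differed by 0.21 (SE 0.18) in females and 0.23 (SE 0.19) in males, and on the other side of P2ry13 the UDP-sugar receptor gene P2ry14 differed by 0.22 (SE 0.11) and -0.14 (SE 0.11). None of these passed (limma, adjusted p between 0.854 and 0.977). The measured genes next to the pair on either side, Aadacl2 and Mbnl1, are thus among those that did not pass.

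**Figure D2:**
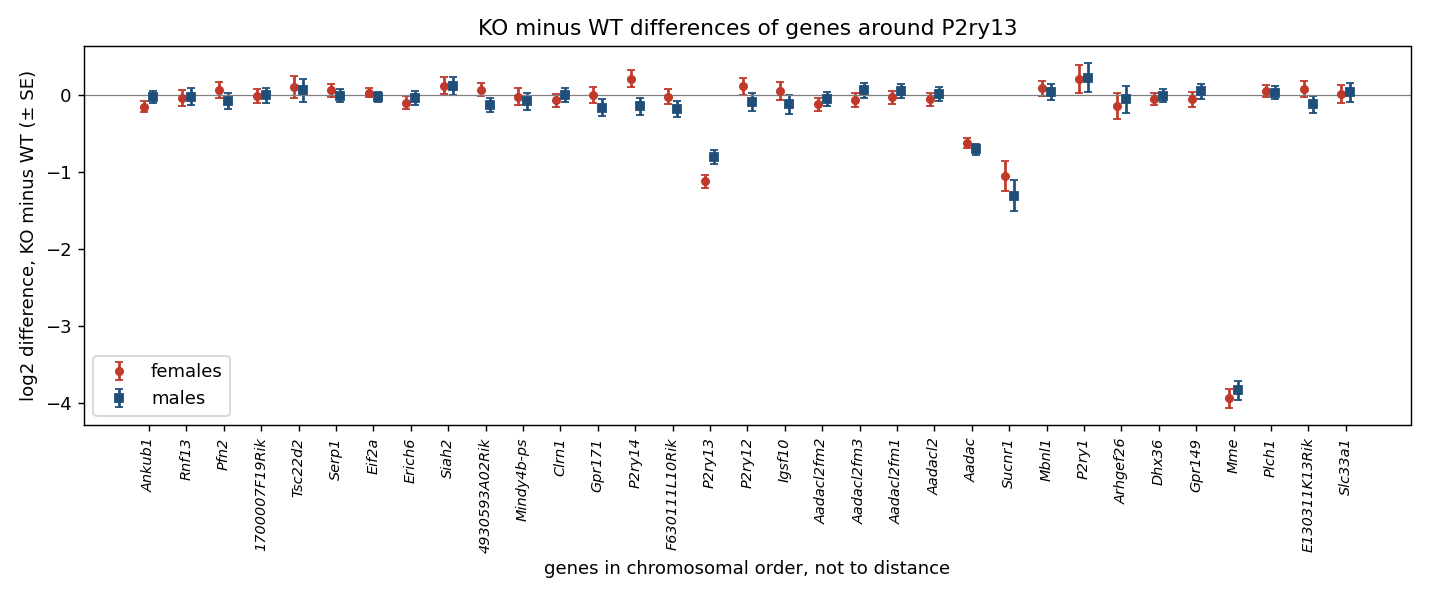
Log2 difference, KO minus WT, with its SE, in females and males for P2ry13, Aadac, Sucnr1 and the 30 other genes, placed in gene order and not to distance; a gene with several probe sets is shown by the brightest. P2ry13, Aadac, Sucnr1 and Mme lie at -0.62 or lower, and the other genes lie between -0.18 and 0.23.

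Sex was not used to choose the pair, so it could be tested. Both genes were lower in female than in male livers. Averaged over genotypes, Sucnr1 was lower in females by a log2 difference of -0.97 (SE 0.14, 51% of the male level, limma, adjusted p = 1.33e-05) and Aadac by -0.20 (SE 0.05, 87.1% of the male level, limma, adjusted p = 0.00623). Among all probe sets 4.55% were called lower and 5.96% higher in females in that average.

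The succinate receptor message passed within each genotype. In KO livers Sucnr1 read 7.81 ± 0.47 in females and 8.65 ± 0.36 in males (SD, n = 6 each), a difference of -0.84 (SE 0.19, limma, adjusted p = 0.00671), and 4 of 6 female arrays lay below every male array; all 6 did so for 1.14% of probe sets. In WT livers it read 8.86 ± 0.37 in females (SD, n = 6) and 9.95 ± 0.31 in males (SD, n = 5), a difference of -1.10 (SE 0.20, limma, adjusted p = 0.000936). All 6 female WT arrays lay below all 5 male WT arrays, the highest by 0.34, as did 1.69% of all probe sets. The background of lower calls was 1.64% in KO and 1.71% in WT livers. The KO call was lost in a plain analysis of variance without limma's shared variance (adjusted p = 0.103). With any single array left out, each of these Sucnr1 calls stood in limma (adjusted p up to 0.0238 in KO, 0.00464 in WT and 5.1e-05 in the average).

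Aadac was less clear within a genotype. In KO livers it read 11.29 ± 0.12 in females and 11.44 ± 0.08 in males (SD, n = 6 each), a difference of -0.16 (SE 0.07, 95% interval -0.29 to -0.02) that did not pass over all probe sets (limma, adjusted p = 0.221), with 4 of 6 female arrays below every male array. In WT livers it read 11.90 ± 0.08 in females (SD, n = 6) and 12.14 ± 0.10 in males (SD, n = 5), a difference of -0.24 (SE 0.07, limma, adjusted p = 0.0448), and all 6 female arrays lay below all 5 male arrays, the highest by 0.05. This WT call ended when female WT replicate 2, 3, 4, 5 or 6, or replicate 2, 3 or 4 of the male WT group, was left out (adjusted p up to 0.128, limma), and stood without any one of the other 3 arrays. It was also lost with equal array medians, array weights, only the WT groups fitted, or a plain analysis of variance (adjusted p 0.0726 to 0.102). The average call stood with any of the 23 arrays left out (limma, adjusted p up to 0.0159).

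In order of level, Sucnr1 ran from female KO through male KO and female WT to male WT, at 7.81, 8.65, 8.86 and 9.95. The middle pair, male KO and female WT, differed by -0.21, less than the SD of either group, and 5 of 6 male KO arrays lay inside the range of female WT. Aadac kept the same order, at 11.29, 11.44, 11.90 and 12.14. Its male KO arrays all lay outside the range of female WT, at a difference of -0.46 between those means.

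Messages that mark cells other than hepatocytes also differed by sex. Of 10 measured Kupffer cell markers, 9 were called higher in females in the average over genotypes (limma), among them Timd4, a phosphatidylserine receptor of resident macrophages, by 0.65, and the scavenger receptor gene Marco by 0.83. Over the 10, the female minus male difference ran from 0.06 to 1.19 in KO livers and from 0.15 to 0.62 in WT livers. The summed linear intensity of these markers was 6740 to 8741 in female KO and 4772 to 6326 in male KO, and 6508 to 7870 in female WT and 4609 to 6139 in male WT. Of 10 stellate cell markers, 4 were called higher in females and none was called lower, among them Colec11, a collectin, by 0.35. By sign alone 7 were higher and 3 lower in females, among the 3 Lrat at -0.29 (limma, adjusted p = 0.158). The stellate sum was 2744 to 3676 in female KO and 2148 to 2768 in male KO. In WT livers it was 2644 to 3403 in females and 2388 to 2885 in males, and the stellate sums of the sexes overlapped in both genotypes. Of 8 markers of sinusoidal endothelium, 5 were higher and none lower, among them Fcgr2b, an Fc receptor gene, by 0.32, with a sum of 3399 to 3857 in female KO and 2954 to 3211 in male KO, and of 3534 to 3973 in female WT and 2859 to 3306 in male WT. Of all 61 measured markers on 10 lists, 20 were higher in females and 4 lower, the direction of Aadac and Sucnr1. Among all probe sets 5.96% were called higher and 4.55% lower in that average, and nothing is read from the 4 lower markers. The 4 were Sox9 of cholangiocytes (-0.34), Cd4 of lymphocytes (-0.32), Slc12a1 of kidney (-0.27) and Cela1 of pancreas (-0.47). The hepatocyte sum was 91875 to 98484 in female KO and 86675 to 93997 in male KO, and 92209 to 98200 in female WT and 87758 to 94786 in male WT. The part of any of these markers in the sex difference was not tested.

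**Figure D3:**
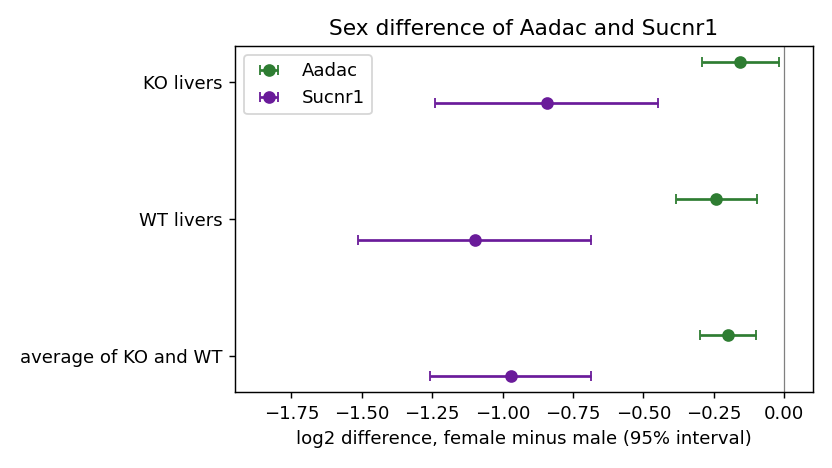
Log2 difference, female minus male, of Aadac and Sucnr1 in KO livers, in WT livers and averaged over both, with 95% intervals from limma. All 6 intervals lie below 0, and those of Sucnr1 lie farther from 0 than those of Aadac.

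Variation within a group was the other measure read, because taking each array's deviation from its own group mean removes both the KO and the sex difference. The size of the spread is not free of the choice, since limma weighs a KO difference against it. The SDs that follow are therefore a description. Aadac was one of the steadier probe sets, with a pooled within-group SD of 0.10, above that of 6.07% of all probe sets, whereas Sucnr1 varied more, with an SD of 0.38, above that of 99.1%. Even so, the deviations of both genes ran together. Over the 23 arrays Pearson's r between Aadac and Sucnr1 was 0.85 (permutation within groups, two-sided, p = 3e-05, adjusted over 3 pairs 9e-05) and Spearman's rho 0.83 (permutation p = 2e-05, adjusted 6e-05). Without the 2 arrays farthest from the median of Aadac, r was 0.80. A deviation of Aadac went with one of Sucnr1 that was 3.31 times as large on the log2 scale.

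The relation had the same sign in every group. It was 0.97 among female KO and 0.72 among female WT arrays, and 0.72 among male KO and 0.95 among male WT arrays, the last on 5 arrays. In an exact permutation test with 6 arrays, the female KO value had p = 0.00556, while female WT and male KO had p = 0.0639 and 0.107. Female KO replicates 2 and 5 were highest for both genes, at 11.40 and 11.45 for Aadac and 8.28 and 8.44 for Sucnr1, and male WT replicates 5 and 6 were lowest in their group for both. In every group replicate 6 lay below the group mean for both genes. The permutations treat the arrays of a group as exchangeable, and the part of the replicate number in r was not tested.

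Neither gene passed with the deviations of P2ry13, the ADP receptor. For Aadac with P2ry13, r was -0.25 and rho -0.28 (permutation p = 0.279 and 0.211, adjusted 0.419 and 0.316), and -0.22 without the 2 farthest arrays. For Sucnr1 with P2ry13, r was -0.16 and rho -0.16 (permutation p = 0.466 and 0.442, adjusted 0.466 and 0.442), and -0.17 without the 2 farthest arrays. Whether P2ry13 deviations in KO arrays reflect transcript is not known, so these pooled values cannot show that the genes vary apart. Within WT arrays r was -0.26 in females and -0.31 in males for Aadac, and -0.004 and -0.05 for Sucnr1. Within KO arrays it was -0.19 and -0.34 for Aadac, and -0.16 and -0.67 for Sucnr1.

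**Figure D4:**
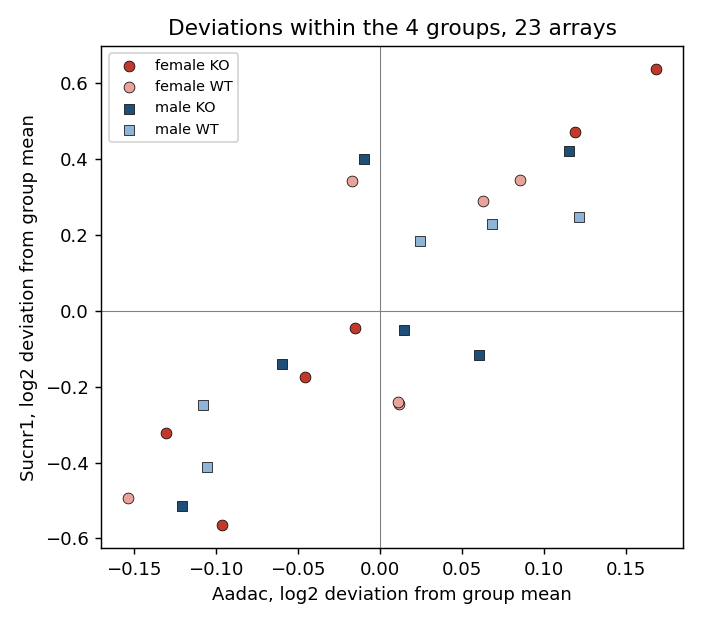
Log2 deviation of Aadac and of Sucnr1 from the mean of their group in each of the 23 arrays, coloured by sex and genotype. Arrays with a high Aadac reading for their group mostly also had a high Sucnr1 reading. The axes have different scales.

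Many other genes shared this variation. Among 11511 genes with a probe set above the median level, Sucnr1 ranked 5 in likeness to Aadac, and Aadac ranked 2 in likeness to Sucnr1. The genes most like Aadac were Dnajc19, a subunit of the mitochondrial import motor (0.86), Ndufc2, a subunit of respiratory complex I (0.85), Pts, an enzyme of tetrahydrobiopterin synthesis (0.85), and Apool, a protein of the mitochondrial inner membrane (0.85). Those most like Sucnr1, besides Aadac, were Adh5, the alcohol dehydrogenase that clears formaldehyde (0.90), Zfyve21, a zinc finger protein (0.85), Agxt2, a mitochondrial aminotransferase (0.83), and Rsrc1, a splicing factor (0.83). Dnajc19, Adh5 and Rsrc1 also lie on chromosome 3. The share of the 11511 genes on that chromosome is not given here, so nothing is read from this. None of the 8 genes named above besides the pair passed for KO against WT in either sex (limma, adjusted p between 0.836 and 0.996 in females and between 0.836 and 0.988 in males). The most opposite genes were Sympk (-0.80), Stac2 (-0.78) and Rpusd1 (-0.77) for Aadac and Hapln4 (-0.81), A730056A06Rik (-0.80) and Chd1 (-0.74) for Sucnr1. These genes were picked as extremes, so their r is a description.

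Of the 11511 genes, 8.39% had an r above 0.5 with Aadac and 7.75% with Sucnr1, at a median r of 0.05 and 0.03. The deviations of the array medians had an r of -0.53 with Aadac and -0.40 with Sucnr1. With all array medians set equal, r between Aadac and Sucnr1 was 0.84, and with quantile normalization 0.82. The first axis of all deviations, 15.9% of their variance, had an r of 0.11 with Aadac and -0.04 with Sucnr1, and r between the genes was 0.86 without it. For the mean deviation of stellate markers r was 0.36 with Aadac and 0.29 with Sucnr1, for Kupffer markers -0.23 and -0.21, and for hepatocyte markers 0.26 and 0.15. For Sucnr1 the values farthest from 0 among the 10 marker lists were those of pancreas, kidney and adipocyte, at -0.47, -0.44 and -0.37, and the same lists had -0.34, -0.37 and -0.22 with Aadac. The part of these markers in the correlation of the pair was not tested.

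**Figure D5:**
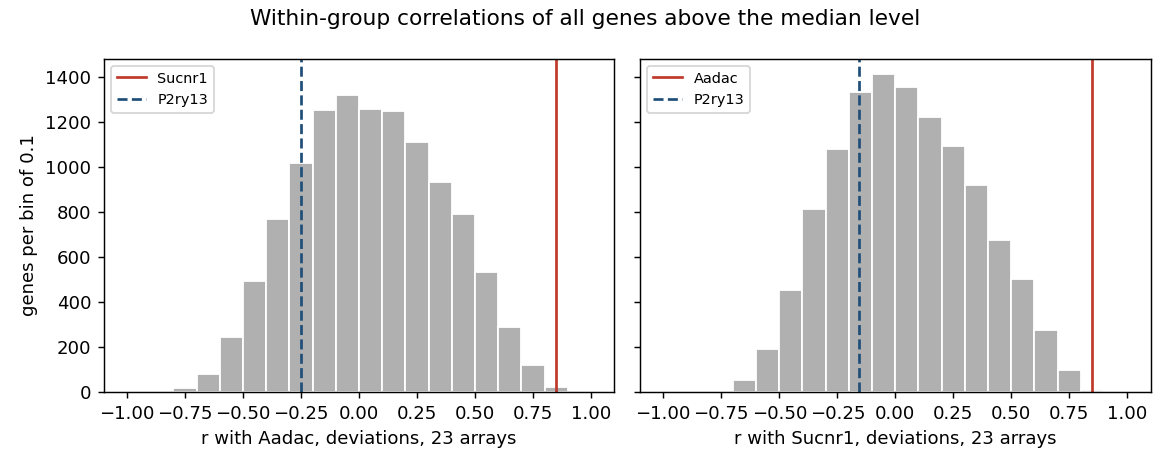
Number of genes, of 11511 above the median level, by the correlation of their deviations with those of Aadac (left) and of Sucnr1 (right) over 23 arrays, in bins of 0.1. The lines mark the other member of the pair, at 0.85, and P2ry13, at -0.25 with Aadac and -0.16 with Sucnr1.

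Genes with related tasks were read in KO against WT livers to see whether the pair moved with its pathways. Of 73 measured genes on 4 lists, none rose or fell in KO livers of either sex (limma), where 0.0547% of all probe sets in females and 0.0313% in males were called. An unadjusted p under 0.05 (limma) was reached by 5 of the 73 in females and 8 in males, beside 5.87% and 6.14% of all probe sets. Of 30 measured lipid hydrolases and Aadac relatives, the median difference was -0.01 in females and -0.03 in males. Butyrylcholinesterase, Bche, read 9.87 in female KO and 9.50 in female WT, a difference of 0.37 (SE 0.10, limma, adjusted p = 0.396). The endothelial lipase gene Lipg read 0.48 higher in female KO, the carboxylesterase Ces1g 0.27 higher and its relative Ces4a 0.36 lower (limma, adjusted p = 0.615, 0.818 and 0.836). Nceh1, a close relative of Aadac that hydrolyses cholesterol esters, differed by 0.06 in females and -0.06 in males (limma, adjusted p = 0.974 in females).

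On the succinate side, 16 genes that make, use or carry succinate had a median difference of 0.06 in females and -0.03 in males. The subunits of succinate dehydrogenase, Sdha, Sdhb, Sdhc and Sdhd, differed by 0.01, -0.02, 0.05 and -0.01 in females and by 0.03, -0.15, -0.06 and -0.05 in males. The dicarboxylate carriers of the plasma membrane, Slc13a2 and Slc13a3, differed by 0.10 and -0.01 in females and by -0.34 and 0.25 in males (limma, adjusted p = 0.943 and 0.998, then 0.688 and 0.794). Ogdh differed by 0.06 in females and -0.26 in males (limma, adjusted p = 0.96 and 0.719). Of 12 other receptors for metabolites, the closest to passing was the calcium-sensing receptor gene Casr in males, at -0.31 (limma, adjusted p = 0.719), and Oxgr1, the related receptor for 2-oxoglutarate, differed by 0.03 in females and 0.06 in males. Among 15 G proteins, phospholipases, kinases and arrestins that receptors of this kind use, Gna14 read 0.30 higher in female KO and 0.37 higher in male KO (limma, adjusted p = 0.848 and 0.72). Grk5, on the same list, differed by 0.10 in females and -0.24 in males (limma, adjusted p = 0.918 and 0.746). The list medians were -0.01 and -0.05 for the metabolite receptors and 0.07 and 0.03 for the signalling genes. Group means were 2.63 to 2.72 for Oxgr1, 3.92 to 4.38 for Casr and 3.63 to 3.89 for Ogdh. The median of the mean levels of all probe sets was 4.35. Others read higher, such as the receptor gene Lpar6 at 9.72 to 9.80. A fall from a low level might not be seen, so small differences of dim genes do not show that they were unchanged.

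Between the sexes these lists held genes moving either way. In the average over genotypes, 10 of the 30 hydrolases were higher in females, such as Bche by 0.70 and Ces1g by 0.55, and 6 were lower, such as Ces4a by -0.77 and Ces1e by -0.59 (limma, adjusted p up to 0.001 for these). Among succinate genes Slc13a3 was higher in females by 0.40 and Fh1, fumarase, lower by -0.40, Slc13a2 by -0.38 and Dlst by -0.15, and the other 12 did not pass. Of all probe sets, 10.5% were called in either direction.

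The tissue label was checked with markers of each cell type. Alb, the albumin gene, read 14.76 in female KO and 14.77 in female WT, and 14.68 in male KO and 14.70 in male WT. Adipoq, the adipocyte gene of adiponectin, read 3.43 in female KO and 3.31 in female WT, and 3.23 in male KO and 3.01 in male WT. Slc12a1, a kidney transporter gene, read 3.04 in female KO and 3.15 in female WT, and 3.24 in male KO and 3.49 in male WT. Of 61 measured markers on 10 lists, none rose or fell in KO livers of either sex (limma), and 5 in each sex had an unadjusted p under 0.05. Among all probe sets 5.87% in females and 6.14% in males were under that unadjusted limit. Of the markers under it, 3 in females and 2 in males were Kupffer markers, and 2 in males were stellate markers. The rest were 1 hepatocyte and 1 dendritic marker in females and 1 kidney marker in males. KO minus WT differences of the Kupffer markers ran from -0.14 to 0.996 in females and from -0.11 to 0.26 in males. Those of the stellate markers ran from -0.12 to 0.18 and from -0.27 to 0.03. The summed stellate markers were 2744 to 3676 in female KO and 2644 to 3403 in female WT, and 2148 to 2768 in male KO and 2388 to 2885 in male WT, and the Kupffer sums given above overlapped between genotypes as well. Lrat and Reln, stellate genes, and Clec4f, a Kupffer gene, were among those that did not pass.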

How the data were processed

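Biotinylated cRNA of each liver was hybridised, per the labels' protocols. For every probe set the authors deposited an intensity on a linear scale. The submitters' processing notes name RMA, and its version and settings were not stated. Values were converted to log2. Groups and replicate numbers came from the sample titles.

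Names came from the annotation of the platform (24478 with 1 symbol, 65 with several, 13842 unnamed here), and 24237 were matched by Entrez ID to the RefSeq table of GRCm38.p6, used for names and gene order only. Start regions came from RefSeq, GRCm38.p6.

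The model in limma held a mean for each of the 4 groups over 23 arrays, with limma 3.58.1 in R 4.3.3 (19 residual and 7.61 prior degrees of freedom), with Benjamini-Hochberg adjustment over 38385 probe sets and a threshold of 0.05. Errors beside differences are standard errors from limma. Correlations of deviations were permuted 100000 times within groups. The brightest probe set stood for a list gene. P-values from limma set a difference against the spread between these arrays, and those of correlations set r or rho against its permuted values.

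The members and lists were chosen with earlier results of these data known. The named genes are the pair, P2ry13, the 15 nearest measured genes on each side, the likeness extremes (5 highest and 3 lowest for each gene), and some of the list members that passed or had the smallest p. The Sdh subunits, Oxgr1 and the cell type markers were named for their roles, outside that rule, with values known. List genes without a single-symbol probe set were not analysed here. Results were recomputed with dim probe sets removed, quantile normalization, equal array medians, array weights, a variance trend, a replicate block, only the compared groups, a plain analysis of variance as in the design text, an exact permutation test and leaving out each array. Equal medians and the first axis removed, for the correlations, were added after the data were seen.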

Additional observations from a re-analysis of the deposited data

How the results depend on the processing

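The KO differences of both genes moved by less than the SD between arrays under each alternative run, although Sucnr1 in females left the selection limit under 2 of them (limma, adjusted p = 0.137 with a variance trend and 0.0719 with only the compared groups) and stayed inside it in 5 of 12 fits with 1 array left out. With 1 array left out they lay between -0.65 and -0.59 (females) and between -0.73 and -0.67 (males) for Aadac, and between -1.18 and -0.94 and between -1.41 and -1.20 for Sucnr1.

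The sex difference of Aadac in WT livers did not pass with equal array medians (-0.22, limma, adjusted p = 0.102), array weights (-0.22, 0.0726), only the compared groups (-0.24, 0.0933) or the plain analysis of variance (-0.24, 0.0727), and lay between -0.27 and -0.21 with 1 array left out (limma, adjusted p 0.0393 to 0.128). In KO livers Aadac reached p = 0.0281 by an exact permutation test (-0.16, unadjusted), and lay between -0.19 and -0.13 with 1 array left out. Sucnr1 in KO livers did not pass in the plain analysis of variance (-0.84, adjusted p = 0.103). With 1 array left out it lay between -0.97 and -0.73 in KO livers, between -1.20 and -1.0 in WT livers and between -1.04 and -0.91 in the average, where Aadac lay between -0.22 and -0.18. The correlation of Aadac with Sucnr1 did not pass within female WT (0.72, exact permutation p = 0.0639) or male KO alone (0.72, p = 0.107), each on 6 arrays.

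Probe sets called numbered 21 in females and 12 in males for KO against WT, and 16 to 29 and 9 to 21 with 1 array left out; the 21 came without male WT replicate 6. Between the sexes 1862 were called in KO and 1632 in WT livers by limma, and 1209 and 765 by the plain analysis of variance.

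Whether the replicate numbers pair the samples is not in the labels. Deviations of same-numbered arrays of different groups correlated at a median of -0.02, and 3 of 33 pairs exceeded 0.1. This median cannot show whether single genes share a pattern by number. Replicate 6 lay below its group mean in all 4 groups for both genes, at -0.15 to -0.06 for Aadac and -0.49 to -0.14 for Sucnr1. With the replicate block, the sex difference was -0.99 for Sucnr1 and -0.20 for Aadac in the average (limma, adjusted p = 4.21e-06 and 0.00739), and 18 probe sets in females and 13 in males were called for KO against WT. The KO differences of Sucnr1 in that fit were -1.05 in females and -1.34 in males, inside the selection limit (limma, adjusted p = 0.00535 and 0.0008).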
